A study of Homo sapiens with 12 samples.

Results

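The 10 genes described here encode the G1 cyclins, their kinases and a pair of regulators that act with them: the D-type cyclins CCND1, CCND2 and CCND3, the kinases CDK4 and CDK6, the E-type cyclins CCNE1 and CCNE2, the kinase CDK2, the phosphatase CDC25A and the ubiquitin ligase subunit SKP2. They were taken by symbol from 43481 genes in the deposited tables, and all 10 were among the 15263 genes that passed the filter on low counts. The cells were RPE-1, a human line established from the pigment epithelium of the retina, and poly-A RNA was read in 12 libraries, 3 for each of 4 groups. All cells were first deprived of glucose and of fetal calf serum (FCS) over 24 h. Refed groups then received FCS (10%) together with glucose (5 g/l) during 4 h, in the presence of 100 µM dimethyl amiloride (DMA), of 10 µM C646, or of the solvent DMSO alone, and the starved group was not refed. DMA is an inhibitor of Na+/H+ exchange and C646 an inhibitor of the acetyltransferases p300 and CBP. The same cell line and the same starvation are shared by all 4 groups, the labels do not say whether libraries came from separate cultures, and p-values therefore measure the spread between these libraries, which may be technical.

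In G1, growth factors raise D-type cyclins, which bind CDK4 or CDK6 and begin the phosphorylation of the retinoblastoma protein. That releases E2F transcription factors, whose targets include the E-type cyclins and CDC25A. Cyclin E activates CDK2, CDC25A removes inhibitory phosphates from CDK2, and SKP2 directs the kinase inhibitor p27 to degradation, so that the cell passes into S phase.

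The libraries held 14910516 to 28968510 expected counts (estimated reads). Levels of a gene across groups are given as CPM, expected counts per 1000000 counts after scaling by the trimmed mean of M-values (TMM). A limit of 3 reads was 0.104 to 0.201 CPM of the library total, for counting error only. Of 11 listed markers of pigment epithelium, TTR was at 0 in every library, RPE65, RLBP1, TYR and TYRP1 did not exceed 0.293 CPM, PMEL did not exceed 0.823 CPM and SERPINF1 1.07 CPM. BEST1 measured 0.625 to 3.92 CPM, LRAT 1.21 to 3.27 CPM, MITF 17.4 to 55.4 CPM and OTX2 6.76 to 21.9 CPM. Of the epithelial markers KRT8 measured 220 to 558 CPM and KRT18 367 to 686 CPM. CDH1 did not exceed 0.251 CPM and EPCAM 0.0806 CPM. Of the mesenchymal markers VIM measured 4020 to 7040 CPM, FN1 6060 to 10100 CPM and CDH2 266 to 362 CPM. COL1A1 measured only 1.14 to 9.53 CPM, and COL1A2 did not exceed 0.134 CPM. Solvent library 1 stood apart from the other 11 libraries on a principal component with 13.4% of the variance, and 15 genes of DNA replication summed to 1300 CPM in it, against 671 and 749 CPM in solvent libraries 2 and 3. That sum was 578 to 621 CPM with DMA, 507 to 573 CPM with C646 and 638 to 828 CPM in starved cells. The part of these replication genes in the results below was not tested. Values without solvent library 1 are given where leaving it out ended a call or moved a value by over 1.5 times.

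The promoters of CDC25A and CCND3 are shown. CDC25A rose with refeeding and holds the one match to an E2F site found. CCND3 was the most clearly raised cyclin, and transcripts from 2 of its annotated starts behaved differently. The promoters are RefSeq windows on GRCh38.p14, from 250 bases before to 50 after an annotated start, both genes lying on the minus strand. Capitals in the CDC25A promoter (chr3:48188368-48188667) mark the E2F match, and capitals in the CCND3 promoters (proximal chr6:41941759-41942058, distal chr6:42048639-42048938) mark GC boxes.
CDC25A promoter: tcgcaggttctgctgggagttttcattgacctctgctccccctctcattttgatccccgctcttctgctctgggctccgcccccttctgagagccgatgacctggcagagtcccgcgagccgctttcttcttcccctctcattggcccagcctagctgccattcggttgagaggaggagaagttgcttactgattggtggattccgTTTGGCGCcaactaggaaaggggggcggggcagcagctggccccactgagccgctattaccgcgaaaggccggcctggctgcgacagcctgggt
CCND3 proximal promoter: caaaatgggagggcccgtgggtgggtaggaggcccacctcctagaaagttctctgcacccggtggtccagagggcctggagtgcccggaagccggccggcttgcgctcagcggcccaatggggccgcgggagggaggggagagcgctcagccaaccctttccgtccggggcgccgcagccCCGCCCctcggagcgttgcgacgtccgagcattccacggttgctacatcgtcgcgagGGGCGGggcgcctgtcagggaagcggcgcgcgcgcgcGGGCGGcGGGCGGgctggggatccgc
CCND3 distal promoter: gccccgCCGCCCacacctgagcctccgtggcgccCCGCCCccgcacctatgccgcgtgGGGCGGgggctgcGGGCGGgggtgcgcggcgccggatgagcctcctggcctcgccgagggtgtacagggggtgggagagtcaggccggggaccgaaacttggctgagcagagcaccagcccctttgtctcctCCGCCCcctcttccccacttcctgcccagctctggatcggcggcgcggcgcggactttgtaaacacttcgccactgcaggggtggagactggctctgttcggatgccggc

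The RefSeq table held 9 windows for 6 of the 10 genes (CCND3, CDK4, CDK6, CCNE1, CDC25A and SKP2). Each was searched on both strands for the E2F words TTTCCCGC, TTTCGCGC, TTTGCCGC and TTTGGCGC, the GC box GGGCGG, the cyclic AMP response element TNACGTCA and the AP-1 site TGANTCA. An E2F word was in 3.31% of all 35116 windows and a GC box in 45%. In CDC25A the E2F word began 44 bases before the start, at -44, and 2 GC boxes were present. The proximal CCND3 window held 4 GC boxes and the distal one 5, and the CCNE1 window, with no E2F word, held 7. A further CCND3 window, at chr6:41939156-41939455 and not printed here, held no E2F word and no GC box. No window of these genes held a response element (3.01% of all windows) or an AP-1 site (7.71%), which says only that these letters are not in these windows.

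Per transcript length, in TPM, the 10 genes spanned a wide range of abundance. CCND1 was highest, with 258 to 728 TPM over the 12 libraries and a median of 419 TPM, and CDK4 followed with 301 to 423 TPM. CCND3 ranged over 14.2 to 59.3 TPM, CDK2 over 15.7 to 56.9 TPM and CDK6 over 4.90 to 18.1 TPM. SKP2 and CDC25A had medians of 8.59 and 6.50 TPM. The E-type cyclins were scarce, with medians of 2.29 TPM for CCNE2 and 2.19 TPM for CCNE1, and CCND2 was lowest with a median of 0.696 TPM. Neighbours in this order overlapped in their ranges except at 2 steps: CDK4 lay wholly above CCND3, and CCNE1 wholly above CCND2.

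**Figure D1:**
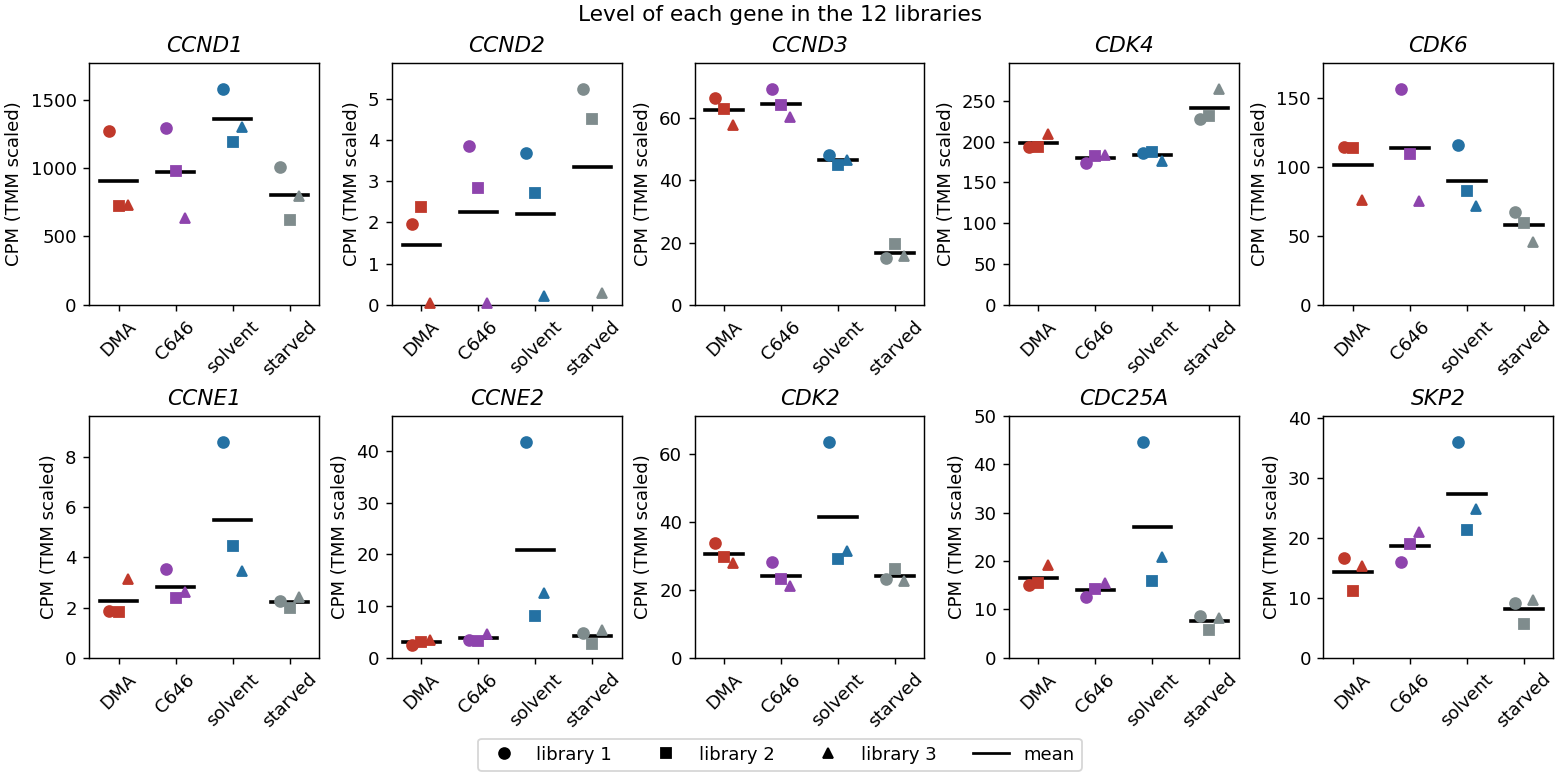
CPM of each of the 10 genes in every library of the DMA, C646, solvent and starved groups; symbols mark library numbers 1 to 3 and lines mark group means. Solvent library 1 is the highest of all 12 libraries for CCNE1, CCNE2, CDK2, CDC25A and SKP2, and CCND2 is near 0 in library 3 of every group.

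Refeeding with solvent was compared with starvation to see what FCS and glucose changed within 4 h. Of the 10 genes 6 rose and 1 fell (edgeR quasi-likelihood test, Benjamini-Hochberg adjusted over 15263 genes), where 24.3% of all genes passed, 12.6% higher and 11.7% lower. With the replicate number as a block 9 of 10 passed, where 35.7% of all genes did. For 9 of the 10 the libraries of the groups did not overlap, as for 40.0% of all genes. CCND3, SKP2, CDC25A, CCNE2, CCNE1 and CDK2 rose, and CDK4 fell. The median log2 change of the 10 genes was 1.06, against 0.00 over all genes. Without solvent library 1 the median was 0.73 and 5 of the 10 passed, where 17.4% of all genes did. Scaling to spike-in controls raised the median of all genes by 0.60, so every change here is relative to the other genes.

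CCND3 (chr6, 41934933 to 42050357) encodes a D-type cyclin. It measured 48.2, 44.8 and 46.7 CPM with solvent, against 15.01, 19.5 and 15.5 CPM in starved cells. The solvent libraries lay close together and far above the starved ones. CCND3 rose by 1.48 ± 0.13 (log2, SE; adjusted p = 1.2e-05), and by 1.46 without solvent library 1.

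CCND1 (chr11, 69641087 to 69654474), the D-type cyclin most abundant in these cells, measured 1577, 1186 and 1300 CPM with solvent, against 1004, 620 and 791 CPM in starved cells. The groups did not overlap, but the log2 difference of 0.75 ± 0.28 missed the threshold (adjusted p = 0.067). It passed with DESeq2 (adjusted p = 0.025), with the block (0.0027), with the block and without solvent library 1 (0.0034) and with spike-in scaling (1.33 ± 0.36, 0.0037). It missed the threshold without that library (0.63 ± 0.31, adjusted p = 0.19), with the length offset (0.62, 0.22) and with no filter on low counts (0.23). CDK6 (chr7, 92604921 to 92836594), a kinase partner of D-type cyclins, measured 116, 82.4 and 71.5 CPM with solvent, against 67.5, 59.6 and 46.0 CPM in starved cells, with no overlap and a difference of 0.64 ± 0.27 that missed the threshold (adjusted p = 0.099, and 0.056 with DESeq2). Without solvent library 1 the CDK6 difference was 0.42 ± 0.27 (adjusted p = 0.33), and with a transcript length offset 0.49 ± 0.31 (adjusted p = 0.29). It passed with the block (0.63 ± 0.12, adjusted p = 0.00099), and with the block and without that library (0.60 ± 0.13, adjusted p = 0.005). Library numbers were not shown to pair these groups. With spike-in scaling it also passed (1.19 ± 0.34, adjusted p = 0.0053).

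CDK4 (chr12, 57747727 to 57756013), the other kinase of D-type cyclins, was the 1 gene that fell. It measured 186, 188 and 177 CPM with solvent, against 227, 231 and 264 CPM in starved cells. All refed libraries lay below all starved ones by a small margin, -0.39 ± 0.10 (adjusted p = 0.0096), but with spike-in scaling the difference was 0.19 and not called (adjusted p = 0.69), so its direction depends on the scaling. Exons of TSPAN31 on the opposite strand overlap 43.2% of the CDK4 exons, and whether reads were counted by strand is not stated in the sources; TSPAN31 itself measured 11.9 to 17.8 CPM with solvent and 15.1 to 16.8 CPM in starved cells (-0.12 ± 0.18, adjusted p = 0.684).

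CCNE2 (chr8, 94879770 to 94896678), an E-type cyclin, measured 41.8, 8.04 and 12.6 CPM with solvent, against 4.75, 2.60 and 5.28 CPM in starved cells. Solvent library 1 held several times the level of its companions, yet the lowest solvent library was still above the highest starved one. CCNE2 rose by 2.32 ± 0.51 (adjusted p = 0.0061), and by 1.30 ± 0.32 without solvent library 1 (adjusted p = 0.017). INTS8 and a long noncoding gene on the opposite strand overlap 37.1% of its exons, and INTS8 rose by 0.55 ± 0.19 (adjusted p = 0.0499).

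CCNE1 (chr19, 29811898 to 29824308), its paralogue, measured 8.61, 4.46 and 3.44 CPM with solvent, against 2.25, 1.97 and 2.42 CPM in starved cells. It rose by 1.32 ± 0.36 (adjusted p = 0.016). The call ended without starved library 1 (adjusted p = 0.051), starved library 2 (0.069) or solvent library 1 (0.84, adjusted p = 0.095). The counts behind it were low, at 34 to 245 reads a library.

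CDK2 (chr12, 55966769 to 55972784), the kinase of the E-type cyclins, measured 63.7, 29.3 and 31.6 CPM with solvent, against 23.3, 26.1 and 22.7 CPM in starved cells. Its rise of 0.79 ± 0.25 (adjusted p = 0.033) became 0.34 ± 0.16 without solvent library 1 (adjusted p = 0.16). It also missed the threshold without starved library 1, 2 or 3 (adjusted p = 0.097, 0.069 and 0.087).

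CDC25A (chr3, 48157146 to 48188402), the phosphatase whose promoter is printed above, measured 44.7, 15.9 and 20.9 CPM with solvent, against 8.63, 5.82 and 8.13 CPM in starved cells. SKP2 (chr5, 36151989 to 36184319), which recognises p27 for ubiquitination, measured 36.0, 21.3 and 24.8 CPM with solvent, against 9.16, 5.65 and 9.62 CPM in starved cells. Both were well above the starved range in every solvent library. CDC25A rose by 1.86 ± 0.32 (adjusted p = 0.0014) and SKP2 by 1.76 ± 0.25 (adjusted p = 0.00034). Without solvent library 1 the rises were 1.29 ± 0.21 (adjusted p = 0.0019) and 1.51 ± 0.24 (adjusted p = 0.0016).

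**Figure D2:**
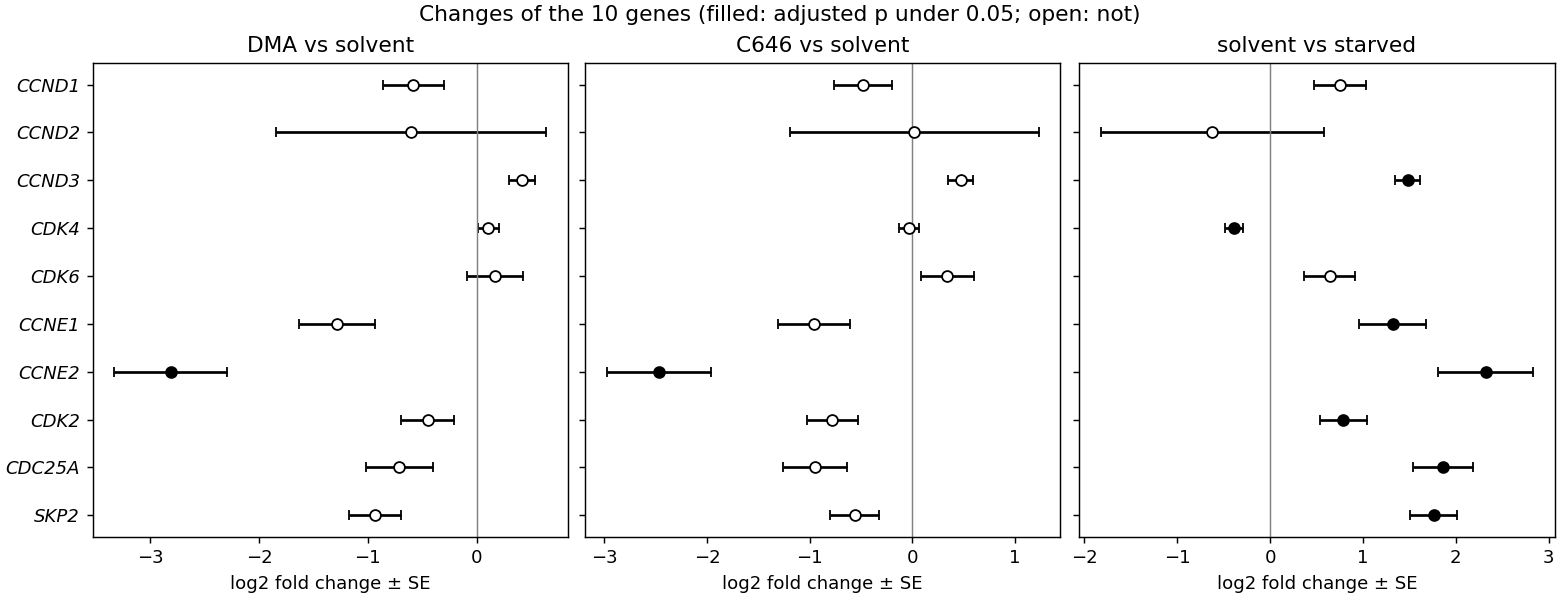
Log2 fold change with SE of the 10 genes for DMA over solvent, C646 over solvent and solvent over starved; filled points passed an adjusted p of 0.05. Under either inhibitor CCNE2 alone is filled, and with refeeding 7 genes are; the fall of CDK4 there (-0.39) measured 0.19 with spike-in scaling.

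The comparison of DMA with solvent asks how the 10 genes differ when Na+/H+ exchange is inhibited during refeeding. CCNE2 was the 1 gene of the 10 that fell and none rose, where 1.75% of all genes passed (0.734% higher and 1.02% lower). For 5 of the 10 the libraries of the groups did not overlap, as for 23.2% of all genes. With the replicate number as a block, 5 of 10 passed, where 10.2% of all genes did: CCND1, CCNE1, CCNE2 and SKP2 lower and CCND3 higher. The median log2 difference of the 10 genes was -0.59, against 0.01 over all genes, and without solvent library 1 it was -0.08, when none of the 10 passed and 0.0511% of all genes did.

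CCNE2 measured 2.46, 3.04 and 3.38 CPM with DMA, against 41.8, 8.04 and 12.6 CPM with solvent. The DMA libraries lay close together below every solvent library and overlapped the starved range. CCNE2 fell by 2.81 ± 0.52 on the log2 scale (adjusted p = 0.023). Without solvent library 1 it was -1.80 ± 0.33 (adjusted p = 0.063), and with the block and without that library -1.75 ± 0.25 (adjusted p = 0.0074). The unblocked call also ended without DMA library 1, 2 or 3 (adjusted p = 0.053, 0.12 and 0.059).

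CCNE1 measured 1.86, 1.83 and 3.14 CPM with DMA, against 8.61, 4.46 and 3.44 CPM with solvent. The groups came close but did not overlap, and the difference of -1.28 ± 0.35 did not pass (adjusted p = 0.080), though it did with the block (-1.22 ± 0.31, adjusted p = 0.029) and with DESeq2 (adjusted p = 0.016); without solvent library 1 it was -0.79 ± 0.32 (adjusted p = 0.34). SKP2 measured 16.6, 11.2 and 15.3 CPM with DMA, against 36.0, 21.3 and 24.8 CPM with solvent. Its difference of -0.93 ± 0.24 likewise missed the threshold (adjusted p = 0.067) and passed with the block (0.010) and with DESeq2 (0.0082). It was -0.73 ± 0.20 with the block and without solvent library 1 (adjusted p = 0.060).

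CDC25A measured 15.1, 15.5 and 19.2 CPM with DMA, against 44.7, 15.9 and 20.9 CPM with solvent. Apart from solvent library 1 the groups overlapped. The difference was -0.71 ± 0.31 (adjusted p = 0.23), and -0.15 ± 0.21 without solvent library 1 (adjusted p = 0.83). CDK2 measured 34.0, 29.8 and 27.8 CPM with DMA, against 63.7, 29.3 and 31.6 CPM with solvent, a difference of -0.45 ± 0.24 (adjusted p = 0.34) that was 0.00 ± 0.16 without that library.

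Among the D-type cyclins, CCND3 measured 66.7, 63.0 and 57.8 CPM with DMA, against 48.2, 44.8 and 46.7 CPM with solvent. Every DMA library was above every solvent library, by 0.42 ± 0.12 (adjusted p = 0.086, and 0.031 with the block). CCND1 measured 1268, 721 and 727 CPM with DMA, against 1577, 1186 and 1300 CPM with solvent, with DMA library 1 inside the solvent range (-0.58 ± 0.28, adjusted p = 0.27, and -0.63 ± 0.16 with the block, adjusted p = 0.029); with an offset for transcript length it was -0.10 ± 0.33 (adjusted p = 0.92). CDK4 (0.11 ± 0.10, adjusted p = 0.55) and CDK6 (0.17 ± 0.26, adjusted p = 0.77, and 0.40 ± 0.28 without solvent library 1) did not pass.

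C646 was compared with solvent to see how the 10 genes differ when p300 and CBP are inhibited during refeeding. Again CCNE2 was the 1 gene that fell and none rose, where 1.21% of all genes passed (0.812% higher and 0.400% lower). For 5 of the 10 the libraries of the groups did not overlap, as for 21.8% of all genes. With the block 3 of 10 passed, where 7.86% of all genes did: CCNE2 and CDK2 lower and CCND3 higher. The median log2 difference was -0.52, against 0.01 over all genes, and without solvent library 1 it was -0.32, when none of the 10 passed and 0.153% of all genes did. The comparisons of the inhibitors share the solvent libraries, so the 2 sets of values are not independent.

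CCNE2 measured 3.48, 3.23 and 4.62 CPM with C646, against 41.8, 8.04 and 12.6 CPM with solvent. No C646 library reached the lowest solvent library. CCNE2 fell by 2.47 ± 0.51 (adjusted p = 0.040), measured -1.45 ± 0.32 without solvent library 1 (adjusted p = 0.12), and -1.42 ± 0.24 with the block and without that library (adjusted p = 0.012). The unblocked call also ended without C646 library 1, 2 or 3 (adjusted p = 0.16, 0.12 and 0.089).

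CDK2 measured 28.1, 23.2 and 21.0 CPM with C646, against 63.7, 29.3 and 31.6 CPM with solvent. All C646 libraries lay below all solvent libraries, narrowly so for 1 of them, and the difference of -0.78 ± 0.25 missed the threshold (adjusted p = 0.13) but passed with the block (0.037) and with DESeq2 (0.040). Without solvent library 1 it was -0.34 ± 0.16 (adjusted p = 0.49), and with the block too -0.41 ± 0.14 (adjusted p = 0.16). CCND3 measured 69.4, 64.2 and 60.3 CPM with C646, against 48.2, 44.8 and 46.7 CPM with solvent, with no overlap (0.47 ± 0.12, adjusted p = 0.074, and 0.023 with the block).

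CDC25A measured 12.5, 14.2 and 15.5 CPM with C646, against 44.7, 15.9 and 20.9 CPM with solvent. The groups did not overlap, though the highest C646 library came close to solvent library 2, and the difference of -0.95 ± 0.31 did not pass (adjusted p = 0.14, and 0.041 with DESeq2); without solvent library 1 it was -0.39 ± 0.21 (adjusted p = 0.57). SKP2 measured 16, 18.9 and 20.9 CPM with C646, against 36.0, 21.3 and 24.8 CPM with solvent (-0.56 ± 0.24, adjusted p = 0.26), and without solvent library 1 the difference was -0.31 ± 0.24 (adjusted p = 0.71). CCNE1 measured 3.52, 2.38 and 2.60 CPM with C646, against 8.61, 4.46 and 3.44 CPM with solvent, and the groups overlapped (-0.96 ± 0.35, adjusted p = 0.18, and -0.48 ± 0.32 without solvent library 1, adjusted p = 0.66). CCND1 (-0.48 ± 0.28, adjusted p = 0.40, and -0.04 ± 0.33 with the length offset), CDK6 (0.34 ± 0.26, adjusted p = 0.56, and 0.56 ± 0.28 without solvent library 1) and CDK4 (-0.03 ± 0.10, adjusted p = 0.91) did not pass.

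**Figure D3:**
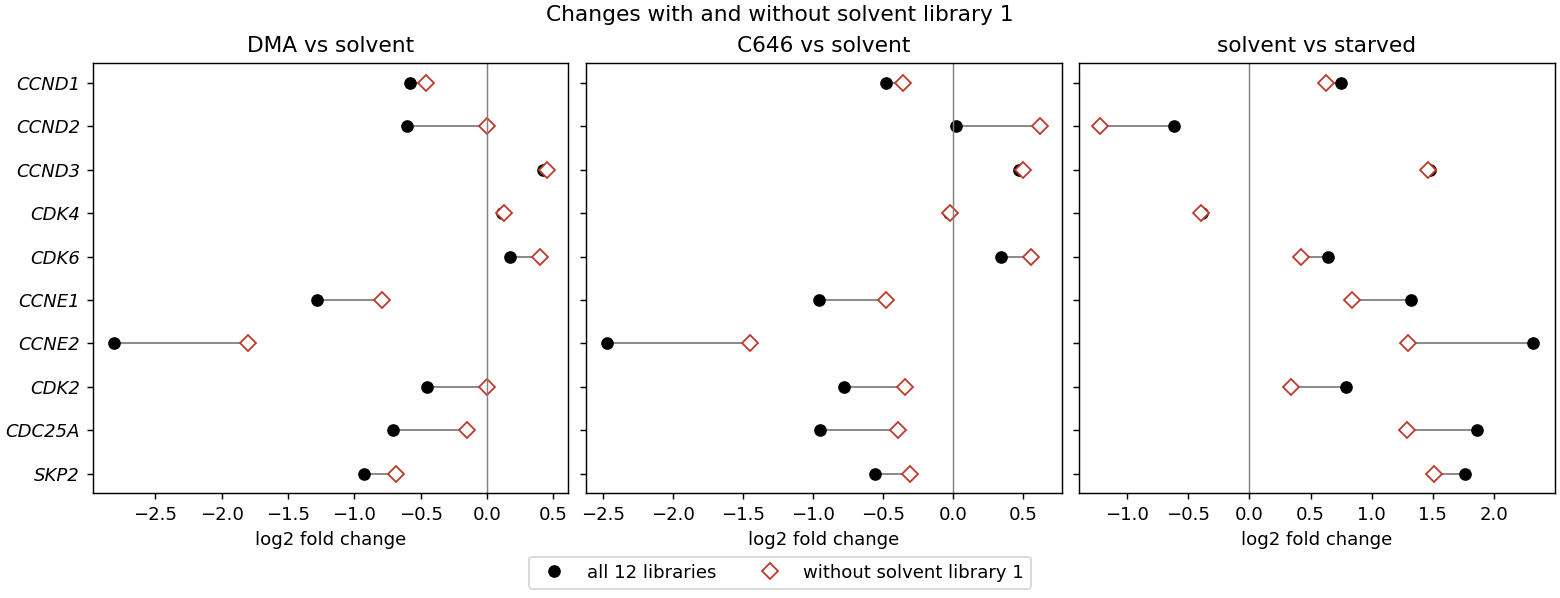
Log2 fold changes of the 10 genes with all 12 libraries and without solvent library 1, for DMA over solvent, C646 over solvent and solvent over starved. With refeeding CCND3 was 1.46 without the library and 1.48 with it, whereas CCNE2 moved to 1.30 there, against 2.32 with all libraries; the fall of CDK4 turns to 0.19 with spike-in scaling.

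Set directly against starved cells, the refed and inhibited cells separate the genes further. With DMA 4 of the 10 genes were higher and 1 lower, where 26.9% of all genes passed (13.9% higher and 13.0% lower), and with the block 6 passed, where 38.7% did. The libraries of the groups did not overlap for 6 of the 10, as for 41.6% of all genes. With C646 3 were higher and 1 lower, where 24.6% passed (12.9% higher and 11.7% lower), and with the block 5 passed, where 36.2% did. The libraries did not overlap for 5 of the 10, as for 40.5% of all genes. Both comparisons use the same starved libraries as the comparison of solvent. CCND3 was higher with DMA by 1.90 ± 0.13 (adjusted p = 1.5e-06) and with C646 by 1.95 ± 0.13 (adjusted p = 1.7e-06). SKP2 was higher with DMA by 0.82 ± 0.25 (adjusted p = 0.026) and with C646 by 1.20 ± 0.25 (adjusted p = 0.0039). CDK6 was higher with DMA by 0.82 ± 0.27 (adjusted p = 0.039) and with C646 by 0.98 ± 0.27 (adjusted p = 0.019). The C646 call of CDK6 ended without starved library 2 or 3 or C646 library 1 (adjusted p = 0.052, 0.07 and 0.087). It also ended with no filter on low counts (adjusted p = 0.086) and with the length offset (adjusted p = 0.09). The DMA call of CDK6 ended without starved library 2 or 3 or DMA library 1 or 2 (adjusted p = 0.086, 0.13, 0.11 and 0.11). No filter (adjusted p = 0.15) and the length offset (adjusted p = 0.086) ended it too. Both calls held with the block (adjusted p = 0.00015 with DMA and 5.8e-05 with C646) and with DESeq2 (0.011 and 0.0021).

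CDC25A was higher with DMA by 1.14 ± 0.32 (adjusted p = 0.018), while with C646 the difference of 0.91 ± 0.32 passed with the block (adjusted p = 0.029) and not without it (0.054). The E-type cyclins gave no call: CCNE2 measured -0.49 ± 0.52 with DMA (adjusted p = 0.52) and -0.15 ± 0.51 with C646 (adjusted p = 0.87), both turning positive with spike-in scaling (0.35 and 0.58), and CCNE1 measured 0.05 ± 0.36 and 0.36 ± 0.36 (adjusted p = 0.94 and 0.50). CDK4 was lower with DMA by -0.28 ± 0.10 (adjusted p = 0.046) and with C646 by -0.42 ± 0.10 (adjusted p = 0.0064), against 0.53 and 0.29 with spike-in scaling. The DMA call of CDK4 ended whichever library was left out (adjusted p = 0.051 to 0.16). It also ended with no filter (adjusted p = 0.14) and with the length offset (adjusted p = 0.066). The block (adjusted p = 0.021) and DESeq2 (adjusted p = 0.028) kept it. Leaving out starved library 2 ended the DMA calls of CDK4, CDK6, CDC25A and SKP2 (adjusted p = 0.067, 0.086, 0.077 and 0.11), which left 1 of 5. Leaving out DMA library 1 or 3 left 2 of 5, and starved library 3 or DMA library 2 left 3.

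DMA was also compared with C646 directly. None of the 10 genes passed (edgeR, 0 at an unadjusted p under 0.05, 0 by DESeq2), where 2.89% of all genes did (0.943% higher and 1.95% lower), and none with the block, where 9.81% did. The libraries did not overlap for 1 of the 10, as for 21.6% of all genes. The differences that stood out most from their error were SKP2 at -0.38 ± 0.24 (adjusted p = 0.47), CDK4 at 0.15 ± 0.10 (adjusted p = 0.48) and CDK2 at 0.34 ± 0.25 (adjusted p = 0.54). CCNE2 differed by -0.35 ± 0.52 (adjusted p = 0.81), and a p that misses the threshold does not show that the inhibitors act alike.

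CCND2 (chr12, 4273772 to 4305350), the third D-type cyclin, was near 0 in library 3 of every group and highest in starved cells within each library number. It measured 1.96, 2.37 and 0.0475 CPM with DMA, 3.85, 2.82 and 0.0457 CPM with C646, 3.69, 2.71 and 0.212 CPM with solvent, and 5.24, 4.52 and 0.285 CPM in starved cells. Library 3 of each group held 1 to 5 reads, and the others 39 to 119. SE of its log2 changes were 1.20 to 1.24 without the block and 0.33 with it for DMA against starved cells. There CCND2 was lower by -1.24 with the block (adjusted p = 0.0088). Without the block that difference was -1.22 (adjusted p = 0.51), with spike-in scaling -0.37 (0.85) and with the length offset -0.48 (0.83). In solvent against starved cells CCND2 measured -0.62 ± 1.20 (adjusted p = 0.75), and -1.22 ± 1.46 without solvent library 1 (adjusted p = 0.62). Without that library DMA against solvent moved from -0.60 to 0.00 and C646 against solvent from 0.02 to 0.62. Exons of AC008012.1 on the same strand overlap 13.8% of the CCND2 exons.

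Transcripts were described with no test, since reads shared by transcripts of a gene are divided by estimation. Splits were unsteady for several genes: ENST00000351231 took 0% to 45.3% of the TPM of CDC25A, and ENST00000444983 took 0% to 76.3% of that of CCNE1. The CCND3 split was unsteady too. Of its proximal transcripts ENST00000414200 took 1.70% to 48.5% and ENST00000372991 18.7% to 58.7%. Of its distal ones ENST00000415497 took 3.04% to 22.7% and ENST00000510503 4.57% to 26.0%. For CCND3, grouping by annotated start was chosen after the transcript values were seen. Of its 23 annotated transcripts, 4 start near the proximal promoter printed above, 15 at or upstream of the distal one, and 4 elsewhere.

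Transcripts from the distal start of CCND3 summed to 17.3, 22.1 and 24.4 TPM with DMA, 12.3, 15 and 6.88 TPM with C646, 3.06, 6.45 and 12.7 TPM with solvent, and 4.64, 4.55 and 5.63 TPM in starved cells. Each DMA library was above all other 9 libraries, and the solvent libraries spread across the starved and C646 ranges. Transcripts from the proximal start summed to 39.8, 32.4 and 23.5 TPM with DMA, 45.4, 39.2 and 42.4 TPM with C646, 36.6, 29.6 and 28.8 TPM with solvent, and 7.81, 10.9 and 6.37 TPM in starved cells. Every refed library, inhibited or not, was above every starved one, every C646 library was above every solvent one, and DMA overlapped with both. The distal share of CCND3 averaged 39.5% with DMA, 19.9% with C646, 18.4% with solvent and 30.8% in starved cells by TPM, and 32.8%, 14.6%, 13.6% and 31.5% by expected counts. By library it was 30, 39.2 and 49.3% of TPM with DMA, and 20.9, 25.2 and 13.7% with C646. With solvent it was 7.61, 17 and 30.5%, and in starved cells 32.5, 25.1 and 34.9%. The share in DMA library 1 thus lay below solvent library 3 and starved libraries 1 and 3. By expected counts that library (22.6%) was above solvent library 3 (21.7%) and below every starved library.

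**Figure D4:**
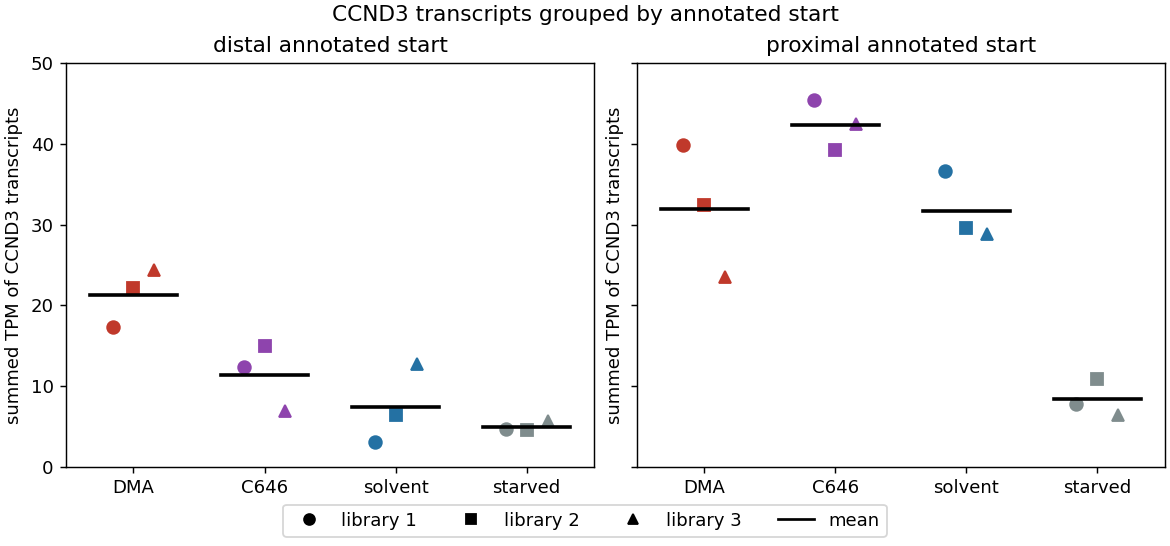
Summed TPM of CCND3 transcripts by annotated start, distal on the left and proximal on the right, in each library of the DMA, C646, solvent and starved groups; lines mark means. The DMA libraries hold 17.3 to 24.4 TPM from the distal start, above all other libraries, while from the proximal start all starved libraries lie below all others and the C646 libraries lie above the solvent ones.

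For CCND1, the full-length coding transcript CCND1-201 measured 371, 218 and 215 TPM with DMA, 384, 298 and 198 TPM with C646, 509, 358 and 402 TPM with solvent, and 319, 189 and 221 TPM in starved cells. A short annotated transcript with a retained intron, ENST00000535993, which was picked after its values were seen and held at most 2.50% of the CCND1 expected counts in any library, measured 130, 23.8 and 21.1 TPM with DMA, 71.6, 62.9 and 10.6 TPM with C646, 1.58, 7.28 and 4.12 TPM with solvent, and 0, 29.8 and 1.17 TPM in starved cells. All libraries with an inhibitor were above all solvent libraries for this short transcript, and starved library 2 lay among them. Another short transcript with a retained intron, ENST00000545484, had a higher mean share of CCND1 TPM, 16.8% against 5.97%. It measured 181.5, 84.7 and 44.6 TPM with DMA and 120.7, 123.2 and 40.9 TPM with C646. With solvent it measured 3.83, 97.1 and 37.9 TPM, and in starved cells 55.2, 72.0 and 33.5 TPM. For this transcript both inhibitor groups overlapped the solvent range. Because such short transcripts weigh more in TPM than in counts, summed CCND1 reached 728 TPM in DMA library 1, against 524 TPM in solvent library 1, although its CPM was lower.

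Of 41 other G1 genes, 40 were tested, and all but CDKN1C passed the filter. With refeeding 6 were higher and 4 lower against starved cells, near the share of all genes (24.3%), and 3 were higher and 3 lower without solvent library 1. With spike-in scaling 11 were higher and none lower, so that no fall named here holds there. With DMA 1 was higher and 2 lower against solvent, where 1.75% of all genes passed, and none without solvent library 1. With C646 1 was higher, where 1.21% of all genes passed, and likewise without that library. Among 7 E2F and DP factors, which control E2F targets, 4 rose with refeeding, and TFDP2 fell (-0.84 ± 0.15, adjusted p = 0.0013, and -0.28 ± 0.34 with spike-in scaling, adjusted p = 0.57). E2F3 (0.54 ± 0.11, adjusted p = 0.0042) and E2F4 (0.49 ± 0.11, adjusted p = 0.0066) also passed without solvent library 1 (adjusted p = 0.021 and 0.012). E2F2 rose most (2.13 ± 0.54, adjusted p = 0.012) but missed the threshold without that library (1.18 ± 0.44, adjusted p = 0.084). TFDP1 rose by 0.43 ± 0.12 (adjusted p = 0.023) and also missed it there (adjusted p = 0.096). Of 2 KIP inhibitors tested, CDKN1B, which encodes the SKP2 substrate p27, fell with refeeding to 50.6 ± 7.45 CPM with solvent, against 82.6 ± 21.2 CPM in starved cells (mean ± SD, n = 3; adjusted p = 0.016). Its log2 change was -0.70 ± 0.19, with -0.60 ± 0.21 without solvent library 1 (adjusted p = 0.068) and -0.10 ± 0.34 with spike-in scaling (adjusted p = 0.84).

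Among 5 partners of SKP2 in its ligase, CKS2 rose by 0.89 ± 0.14 (adjusted p = 7e-04) and CUL1 by 0.30 ± 0.10 (adjusted p = 0.040, and 0.090 without solvent library 1) with refeeding. Of 4 INK4 inhibitors, which block CDK4 and CDK6, CDKN2B fell by 1.21 ± 0.27 (adjusted p = 0.0066; -0.56 with spike-in scaling, not called), and of 3 pocket proteins RBL2, which binds E2F factors in resting cells, fell by 0.66 ± 0.13 (adjusted p = 0.0027; -0.05 with spike-in scaling, not called). None of 3 subunits of the CDK-activating kinase, 4 kinases and phosphatases of CDK tyrosines, 9 turnover genes or 3 later cyclins and kinases passed with refeeding.

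Under the inhibitors CDKN1A, which encodes the CDK inhibitor p21, measured 1090, 958 and 929 CPM with DMA and 1460, 948 and 1220 CPM with C646, against 335, 364 and 529 CPM with solvent. Both sets lay above all solvent libraries (1.28 ± 0.22, adjusted p = 0.018, and 1.56 ± 0.22, adjusted p = 0.0074). Without solvent library 1 the differences were 1.15 ± 0.24 with DMA (adjusted p = 0.089) and 1.44 ± 0.24 with C646 (adjusted p = 0.049). E2F1 fell with DMA to 6.48, 8.58 and 6.75 CPM, against 27.3, 12.5 and 12.6 CPM with solvent (-1.26 ± 0.27, adjusted p = 0.037). E2F2 measured 0.954, 1.03 and 0.666 CPM with DMA, against 10.2, 1.83 and 3.53 CPM with solvent (-2.55 ± 0.55, adjusted p = 0.039). With C646 both genes also lay below all solvent libraries but missed the threshold. E2F1 measured 8.08, 8.27 and 9.64 CPM there (-1.01 ± 0.27, adjusted p = 0.078), and E2F2 0.663, 1.61 and 1.51 CPM (-2.04 ± 0.53, adjusted p = 0.077). Between DMA and C646 neither differed past the threshold (-0.25 and -0.51, adjusted p = 0.72 for each). Solvent library 1 was the highest library for E2F1 and E2F2. Without it neither passed with DMA, at -0.79 ± 0.19 for E2F1 (adjusted p = 0.11) and -1.59 ± 0.44 for E2F2 (adjusted p = 0.17). Nor did they with spike-in scaling, at -0.88 ± 0.38 for E2F1 (adjusted p = 0.48) and -2.05 ± 0.57 for E2F2 (adjusted p = 0.054).

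The patterns most like those of 4 of the genes were looked up by Pearson correlation of log2 CPM over the 12 libraries, among genes with a mean log2 CPM of at least 2. They describe libraries that share groups, and carry no test. CDC25A was closest to BRIX1 (r = 0.976), NUP50 (0.947) and PDE7A (0.941), and SKP2 to SLC35B4 (0.967), MAK16 (0.964) and EOGT (0.964). CCND1 was closest to DGCR8 (0.961) and OGFRL1 (0.923), and CCNE1 to THOC1 (0.950), TEX30 (0.916) and SLF1 (0.903).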

How the data were processed

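Poly-A RNA of 12 RPE-1 libraries was sequenced after a stranded kit, per the labels' protocols. The submitters' processing notes name Trimmomatic 0.36, STAR 2.7.0e and GRCh38.p10; the quantifier is not named there, nor whether it used strand. Per the file headers, the authors' tables hold expected counts, TPM and an effective length per transcript; the deposited TPM sum to 1000000 in each library. Expected counts were summed per gene over GENCODE 29 transcripts (181808 of 182164; 92 others were spike-ins and 264 unmatched) and rounded.

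Genes were filtered with filterByExpr (minimum count 10, total 15), scaled by TMM and tested with edgeR 4.0.16 (robust quasi-likelihood F-test, all 12 libraries in 1 fit, 6 comparisons), with Benjamini-Hochberg adjustment over 15263 genes and a threshold of 0.05. SE are the log2 fold change over the square root of F. The test was tried on simulated counts. The genes, lists and tests were chosen with earlier results of these data known. Named were the 10 genes, called genes of the fixed list of other G1 genes, and the 3 genes most like each of 4 of them, of which 1 is not reported here; INTS8 and TSPAN31 were added for their overlap with them. DESeq2 1.42.0 and the other alternatives are given in the closing section.

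Library numbers pair the libraries where every correlation of same-numbered deviations from group means exceeds 0.1. Between the refed groups these were 0.276 to 0.483, and for the inhibitor groups with starved cells 0.128 to 0.365, so both pair by this limit. The main fit held no block and so left this pairing out, and counts with the block are given beside each comparison. Solvent with starved cells (0.0957, 0.33 and 0.182) missed the limit.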

Additional observations from a re-analysis of the deposited data

How the results depend on the processing

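For the genes called of all genes, DMA against solvent (267) gave 1069 with DESeq2, 91 with spike-in scaling, 455 with no filter, 31 with only these groups fitted, 1560 with the replicate block, 476 with the block and without solvent library 1, and 103 with a transcript length offset. C646 against solvent (185) gave 866 with DESeq2, 100 with spike-in scaling, 348 with no filter, 71 with only these groups, 1199 with the block, and 322 with the block and without solvent library 1. DMA against C646 (441) gave 1001 with DESeq2, 120 with spike-in scaling, 140 with only these groups, 1498 with the block and 279 with the length offset, and DMA against starved cells (4109) gave 6574 with spike-in scaling. Among called genes, spike-in scaling put 93.4% higher for DMA against solvent (41.9% with TMM), 84.0% for C646 against solvent (67.0%), 97.9% and 97.6% for DMA and C646 against starved cells (51.7% and 52.5%), 44.2% for DMA against C646 (32.7%) and 94.5% for solvent against starved cells (51.9%).

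Of the 10 genes, DMA against solvent (1 called) gave 4 with DESeq2, 2 with no filter, 0 with only these groups, 5 with the block, and 2 with the block and without solvent library 1. C646 against solvent (1) gave 4 with DESeq2, 0 with no filter, 0 with only these groups and 3 with the block, and DMA against starved cells (5) gave 3 with no filter or with the length offset. For solvent against starved cells, where library numbers were not shown to pair the libraries, the block called 9 of 10, and 5451 genes in all, against 3704. Every library there correlated best with its own number, as a hint from the data only.

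Leaving out 1 library at a time gave, over all genes, 1 to 286 calls for DMA against solvent, 24 to 134 for C646 against solvent, 3005 to 3480 for DMA against starved cells, 2511 to 3221 for C646 against starved cells, 180 to 316 for DMA against C646 and 2270 to 3447 for solvent against starved cells. Of the 10 genes it gave 0 to 1, 0 to 1, 1 to 4, 3 to 4, 0 to 0 and 5 to 7 calls in the same order.

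Signs turned with spike-in scaling for CDK4 in solvent (0.19), DMA (0.53) and C646 (0.29) against starved cells and in C646 against solvent (0.10), for CCNE2 in DMA (0.35) and C646 (0.58) against starved cells, for CCND2 in C646 against starved cells (0.10), and for CCND3 in DMA against C646 (0.05). CCND2 in C646 against solvent turned to -0.10 with the block and -0.06 with the block and without solvent library 1, where CDK4 was 0.01. CDK2 in C646 against starved cells turned to -0.02 with the block and -0.01 with the length offset.

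Leaving out 1 library at a time also turned signs. In DMA against solvent CDK2 spanned -0.65 to 0, and in C646 against solvent CCND2 spanned -0.61 to 0.62. In DMA against starved cells CCND1 spanned -0.17 to 0.36 and CCNE1 -0.27 to 0.18. In C646 against starved cells CDK2 spanned -0.12 to 0.1 and CCNE2 -0.41 to 0.03. In DMA against C646 CCND1 spanned -0.42 to 0.17, CCND2 -1.19 to 0.01, CCND3 -0.1 to 0.01 and CDK6 -0.39 to 0.14. None of these turned differences had passed the threshold except those of CDK4 against starved cells; the cause was not tested. CCNE1, CCNE2 and CCND2 are limited by depth, with as few as 34, 49 and 1 reads in a library. The values of the other G1 genes and the medians of the 10 genes without solvent library 1 or with spike-in scaling were chosen after seeing the data.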
